A study of Mus musculus with 15 samples.

Results

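The 10 genes described here are *Dusp4*, *Dusp5*, *Dusp6*, *Spry1*, *Spry2*, *Spry4*, *Spred1*, *Spred2*, *Etv4* and *Etv5*, chosen by name for their known roles as feedback inhibitors and ETS-family targets of the ERK pathway, with no threshold on their values. They are 10 of the 55536 genes counted, and 10 of 10 passed the filter on low counts that left 18090 genes for testing. The RNA-seq data came from a mouse system in which naive ESCs were turned into EpiLCs and then into PGCLCs by overexpressed transcription factors without added cytokines. There were 3 replicates each of ESCs, EpiLCs and PGCLCs on days 2, 4 and 6 (D2PGCLCs, D4PGCLCs and D6PGCLCs), 15 samples in all. No label says that replicates were separate cultures, so p-values measure the spread between these samples, which may be technical.

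In all 5 groups the cells belonged to a Stella-eGFP reporter ESC line in which rtTA and doxycycline (Dox)-inducible *Prdm1*, *Prdm14*, *Tfap2c* and *Nanog* transgenes had been integrated and which had been isolated as a clone, so no comparison has cells without the transgenes. ESCs were grown in 2i+LIF, which contains 1 µM of the MEK inhibitor PD0325901 and 3 µM of the GSK3 inhibitor CHIR99021. EpiLCs were collected 48 h after transfer to 12 ng/ml bFGF and 20 ng/ml Activin A. PGCLCs were formed from EpiLC aggregates in medium with 2 µg/ml Dox, and the Stella-eGFP+ cells were sorted. MEK and GSK3 inhibitors, LIF, growth factors, basal medium, serum replacement, culture surface, transgene induction, aggregation and sorting changed together with the cell state. Their shares in a difference between groups cannot be told apart. None of the 10 genes is a transgene.

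ERK is the last kinase of the RAS, RAF and MEK cascade that FGF receptors and other receptors switch on. Active ERK phosphorylates ETS transcription factors and induces genes whose products turn the cascade down: DUSP phosphatases that remove the activating phosphates from MAP kinases, and Sprouty and SPRED proteins that act upstream at the level of RAS and RAF. In mouse ESCs, FGF signalling through ERK drives the exit from the naive state, and a MEK inhibitor is used to hold the cells there, which makes this set of genes a common readout of the pathway.

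The sequences before the start sites are shown first for 3 genes that were higher in EpiLCs than in ESCs (*Dusp5*, *Dusp6* and *Spry1*) and for a Sprouty gene that was not (*Spry2*). RefSeq start-site windows of build GRCm38.p6 were found for 7 of the 10 genes. *Dusp4*, *Spry4* and *Etv4* had no entry. Each line gives the 250 bases upstream of the RefSeq start, 5′ to 3′ on the strand of the gene, with motif matches in capitals. The windows are chr19:53528895-53529144 on the plus strand for *Dusp5*, chr10:99262981-99263230 on the plus strand for *Dusp6*, chr3:37639697-37639946 on the plus strand for *Spry1* and chr14:105896820-105897069 on the minus strand for *Spry2*.
Dusp5: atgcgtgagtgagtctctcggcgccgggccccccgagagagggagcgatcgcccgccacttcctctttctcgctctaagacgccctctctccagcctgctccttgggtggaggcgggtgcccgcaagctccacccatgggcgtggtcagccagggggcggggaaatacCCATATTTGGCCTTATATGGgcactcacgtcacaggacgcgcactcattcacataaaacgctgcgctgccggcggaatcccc
Dusp6: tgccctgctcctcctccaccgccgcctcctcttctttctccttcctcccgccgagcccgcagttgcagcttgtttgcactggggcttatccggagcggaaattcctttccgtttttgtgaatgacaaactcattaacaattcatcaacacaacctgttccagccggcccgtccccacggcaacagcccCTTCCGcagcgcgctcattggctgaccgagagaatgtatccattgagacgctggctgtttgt
Spry1: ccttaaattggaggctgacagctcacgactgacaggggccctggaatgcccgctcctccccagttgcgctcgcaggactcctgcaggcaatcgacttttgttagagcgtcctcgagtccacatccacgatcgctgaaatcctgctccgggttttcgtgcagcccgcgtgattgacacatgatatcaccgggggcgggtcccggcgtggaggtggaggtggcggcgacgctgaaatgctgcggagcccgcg
Spry2: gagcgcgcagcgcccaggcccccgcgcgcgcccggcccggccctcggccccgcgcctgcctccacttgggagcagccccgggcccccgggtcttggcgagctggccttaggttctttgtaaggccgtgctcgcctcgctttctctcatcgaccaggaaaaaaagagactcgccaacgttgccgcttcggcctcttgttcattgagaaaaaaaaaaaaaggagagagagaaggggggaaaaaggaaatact

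Both strands were searched for 3 motifs, namely the CArG box (the serum response element core), CGGAAG (an ETS core) and TGANTCA (an AP-1 site), which do not overlap each other in these windows. The *Dusp5* window held 2 adjacent CArG boxes, at 82 to 73 and 72 to 63 bases before the start. A CArG box was present in 1.47% of 32851 mouse windows of the same length. CGGAAG was found in *Dusp6* on the opposite strand at 62 to 57 bases before the start. It was also found in *Spred1* (17 to 12 bases) and *Spred2* (43 to 38 bases), and in 13.6% of all windows. These distances are from the RefSeq start, which can differ from the start of the annotated gene. The *Spred2* window ends at 19924441, past the annotated gene start at 19924375. The *Spred1* window ends at 117121070, short of the annotated gene start at 117121374. *Spry1*, *Spry2* and *Etv5* had none of the 3 motifs. TGANTCA, present in 6.75% of all windows, occurred in none of the 7 genes. These are matches of letters and not sites shown to be bound.

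Counted reads per sample ranged from 22555021 to 42725681, and levels are given as CPM, read counts scaled by library size and edgeR's TMM factor. The summed level of 5 EpiLC markers was 2815 to 3046 CPM in EpiLCs and 109 to 218 CPM in the other groups, that of 6 PGCLC markers was 820.1 to 1023 CPM in PGCLCs and 122 to 234 CPM elsewhere, and that of 6 naive ESC markers was 2126 to 2190 CPM in ESCs, 258 to 289 CPM in EpiLCs and 987 to 1249 CPM in PGCLCs. The naive markers did not move together. In D2PGCLCs the means of *Esrrb* (620 CPM) and *Nr0b1* (113 CPM) were above those of ESCs (590 and 60.2 CPM). Those of *Zfp42* (330 CPM), *Tfcp2l1* (131 CPM) and *Tbx3* (17.5 CPM) were below ESCs (502, 685 and 155 CPM). *Klf4*, at 5.99 CPM, was below both ESCs (173 CPM) and EpiLCs (16.2 CPM). *Dppa3*, one of the PGCLC markers, is the Stella gene whose reporter was sorted, and *Prdm1* and *Tfap2c* are also transgenes, so that the sort and the induction bear on the PGCLC marker sum directly. *Nanos3*, *Itgb3* and *Dnd1* are neither. The integrin gene *Itgb3* was at 8.10 CPM in ESCs, 3.59 CPM in EpiLCs and 125, 154 and 133 CPM on days 2, 4 and 6 (group means). *Nanos3* was at 3.01 CPM in ESCs, 1.26 CPM in EpiLCs and 14.8, 17.4 and 7.33 CPM on these days. *Dnd1* was at 8.15 CPM in ESCs, 12.8 CPM in EpiLCs and 38.2, 45.1 and 18.8 CPM. The day 6 mean of *Prdm1* (59.6 CPM) was below that of EpiLCs (71.6 CPM). In D6PGCLC replicate 1, 18061 genes had a count, against 21103 to 24343 in the other samples, so results on day 6 are also given without it. In bulk RNA, fewer cells expressing a gene and less RNA per cell cannot be told apart.

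The widest range among the 10 genes belonged to the phosphatases. The ratio of the highest to the lowest group mean in CPM was 71.3 for *Dusp4*, 19.9 for *Dusp6* and 7.79 for *Dusp5*. It was 2.61 for *Spry1*, 2.56 for *Etv4*, 1.91 for *Spry4*, 1.86 for *Etv5*, 1.61 for *Spry2*, 1.43 for *Spred2* and 1.15 for *Spred1*. For the 3 phosphatase genes the lowest group was ESCs, the only group kept in 2i+LIF. ESCs were also the lowest group for *Spry1* and *Spred2*.

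**Figure D1:**
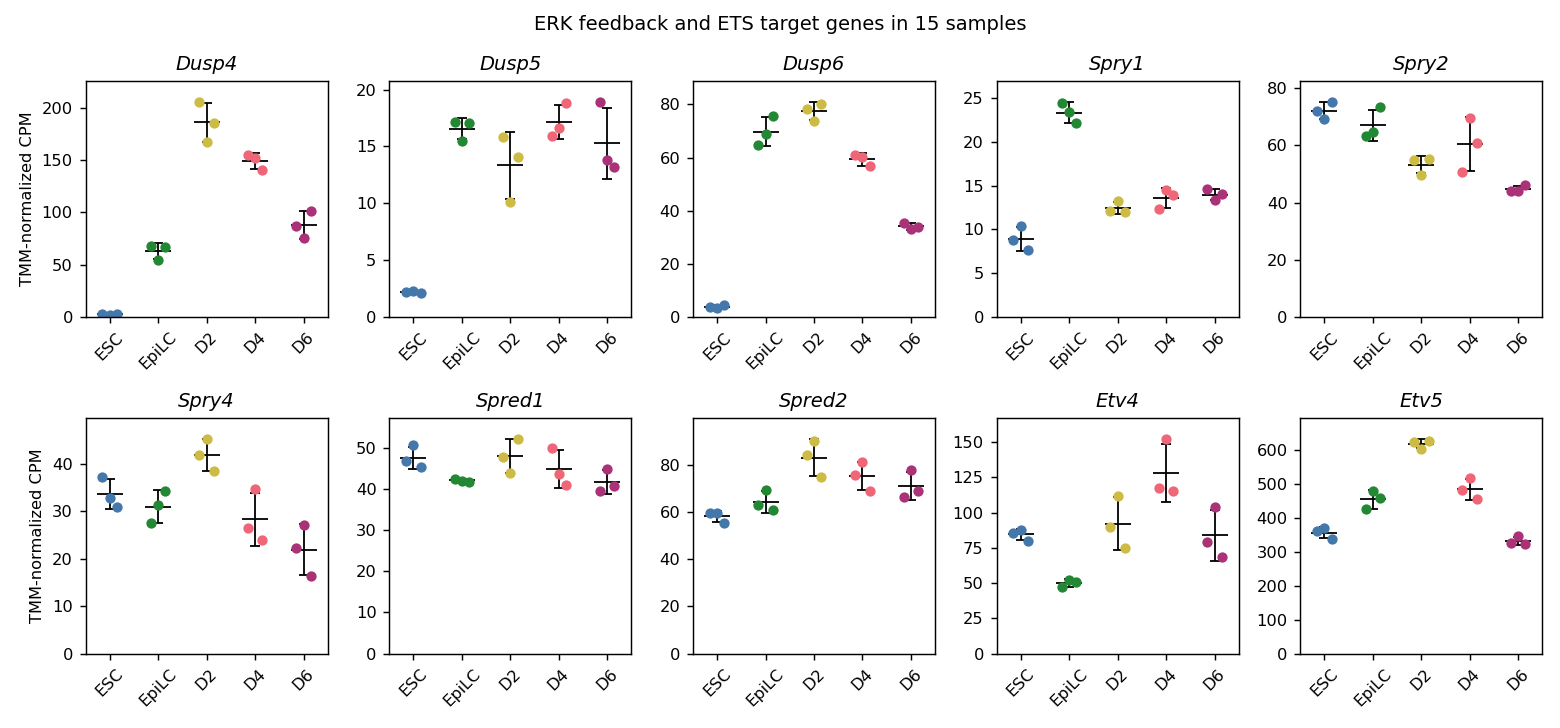
TMM-normalized CPM (linear axes from 0) of each of the 10 genes in the 15 samples, with points for replicates and bars for the mean ± SD of 3. ESC points lie below all other points for the 3 *Dusp* genes and *Spry1*, and the spread of the 5 groups is much smaller for *Spred1* and *Spred2*.

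*Dusp4* (ENSMUSG00000031530, mm10 chr8:34807297-34819894) encodes a nuclear phosphatase of ERK and other MAP kinases. Its level was 2.88, 1.67 and 3.28 CPM in the 3 ESC samples and 67.7, 54.3 and 67.0 CPM in EpiLCs. In PGCLCs it was 205, 168 and 186 CPM on day 2, 155, 153 and 141 CPM on day 4 and 87.0, 75.3 and 102 CPM on day 6. The order was D2PGCLC, D4PGCLC, D6PGCLC, EpiLC and ESC, and the replicates of no 2 neighbouring groups in it overlapped. Per kilobase of exon, *Dusp4* rose from the 35.9th percentile of tested genes in ESCs to the 96.2nd in D2PGCLCs.

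*Dusp6* (ENSMUSG00000019960, chr10:99263231-99267489) encodes a cytoplasmic phosphatase selective for ERK. In ESCs it was 3.87, 3.29 and 4.49 CPM, and in EpiLCs 64.7, 68.8 and 75.5 CPM. PGCLC levels were 78.4, 73.6 and 80.1 CPM on day 2, 61.0, 60.3 and 56.6 CPM on day 4 and 35.4, 32.9 and 34.0 CPM on day 6. D2PGCLCs and EpiLCs overlapped, while D4PGCLCs, D6PGCLCs and ESCs each lay wholly below the group before.

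*Dusp5* (ENSMUSG00000034765, chr19:53529109-53542431) encodes a nuclear phosphatase selective for ERK, and the end of the window printed above runs past this annotated start. The 3 ESC samples had 2.19, 2.32 and 2.08 CPM and the EpiLC samples 17.1, 15.5 and 17.1 CPM. In PGCLCs the values were 15.9, 10.1 and 14.0 CPM on day 2, 15.9, 16.6 and 18.8 CPM on day 4 and 18.9, 13.8 and 13.2 CPM on day 6. EpiLCs and the 3 PGCLC groups formed a plateau in which neighbouring groups overlapped, and ESCs stood apart below it. An antisense gene shares 547 exon bases with *Dusp5* and had 0 to 6 counts per sample, against 53 to 718 for *Dusp5*. Whether reads were counted by strand is not given in the sources used here.

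Of the Sprouty genes, whose products restrain signalling from receptor tyrosine kinases to ERK, *Spry1* (ENSMUSG00000037211, chr3:37639947-37644598) had its highest level in EpiLCs. Its values were 8.76, 10.3 and 7.64 CPM in ESCs and 24.5, 23.4 and 22.1 CPM in EpiLCs. On days 2, 4 and 6 the 9 PGCLC samples lay between 12.0 and 14.6 CPM. The PGCLC groups overlapped each other in the order of their means and lay wholly below EpiLCs and above ESCs. A gene on the other strand overlaps 710 exon bases of *Spry1* and had 0 to 7 counts per sample, against 228 to 711 for *Spry1*.

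*Spry2* (ENSMUSG00000022114, chr14:105891947-105896819) was highest in ESCs, at 72.1, 69.2 and 74.9 CPM. EpiLCs (63.2 to 73.2 CPM), D4PGCLCs (50.6 to 69.6 CPM) and D2PGCLCs (49.7 to 55.2 CPM) followed with overlapping neighbours. D6PGCLCs, at 44.1, 44.0 and 46.0 CPM, lay below them all. *Spry4* (ENSMUSG00000024427, chr18:38586247-38601415) had 37.2, 32.7 and 31.0 CPM in ESCs and 27.5, 31.3 and 34.3 CPM in EpiLCs. In PGCLCs it had 41.9, 45.2 and 38.4 CPM on day 2, 26.5, 34.7 and 24.0 CPM on day 4 and 22.3, 27.2 and 16.4 CPM on day 6. Only the day 2 samples stood apart from the next group in this order, and on each day the second replicate was the highest.

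The SPRED genes, whose products bring the RAS inhibitor neurofibromin to the membrane, were the steadiest of the set. *Spred1* (ENSMUSG00000027351, chr2:117121374-117182279) lay between 39.5 and 52.0 CPM in all 15 samples, and every pair of neighbouring groups overlapped. *Spred2* (ENSMUSG00000045671, chr11:19924375-20024026) was 55.3 to 59.5 CPM in ESCs and 60.7 to 69.6 CPM in EpiLCs. In PGCLCs it was 74.8 to 90.3 CPM on day 2, 69.1 to 81.0 CPM on day 4 and 66.2 to 77.8 CPM on day 6. ESCs were the lowest group for *Spred2*, and the other 4 groups overlapped with their neighbours.

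The ETS factor genes belong to the PEA3 subfamily, which FGF signalling induces in many embryonic tissues. *Etv4* (ENSMUSG00000017724, chr11:101769742-101785371) was lowest in EpiLCs, at 47.3, 52.6 and 50.7 CPM, against 85.6, 87.8 and 80.1 CPM in ESCs. In PGCLCs it was 89.6, 112 and 75.1 CPM on day 2, 118, 152 and 115 CPM on day 4 and 79.1, 104 and 68.5 CPM on day 6. D4PGCLCs lay above all other groups, ESCs overlapped with D2PGCLCs and D6PGCLCs, and EpiLCs lay below all of them.

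*Etv5* (ENSMUSG00000013089, chr16:22381309-22439719) was the most abundant of the 10 genes per kilobase of exon in every group, between the 97.3rd and 98.6th percentile of tested genes. Its levels were 360.0, 369.8 and 338 CPM in ESCs and 424, 479 and 458 CPM in EpiLCs. In PGCLCs they were 624, 601 and 626 CPM on day 2, 480.3, 515 and 454 CPM on day 4 and 324, 346 and 323 CPM on day 6. D2PGCLCs stood above the rest, D4PGCLCs overlapped with EpiLCs, and ESCs overlapped with D6PGCLCs. In ESCs, grown in 2i+LIF, the level per kilobase of exon was 86.8 ± 3.96 CPM per kb (SD, n = 3) for *Etv5* and 1.24 ± 0.192 CPM per kb for *Dusp6*.

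**Figure D2:**
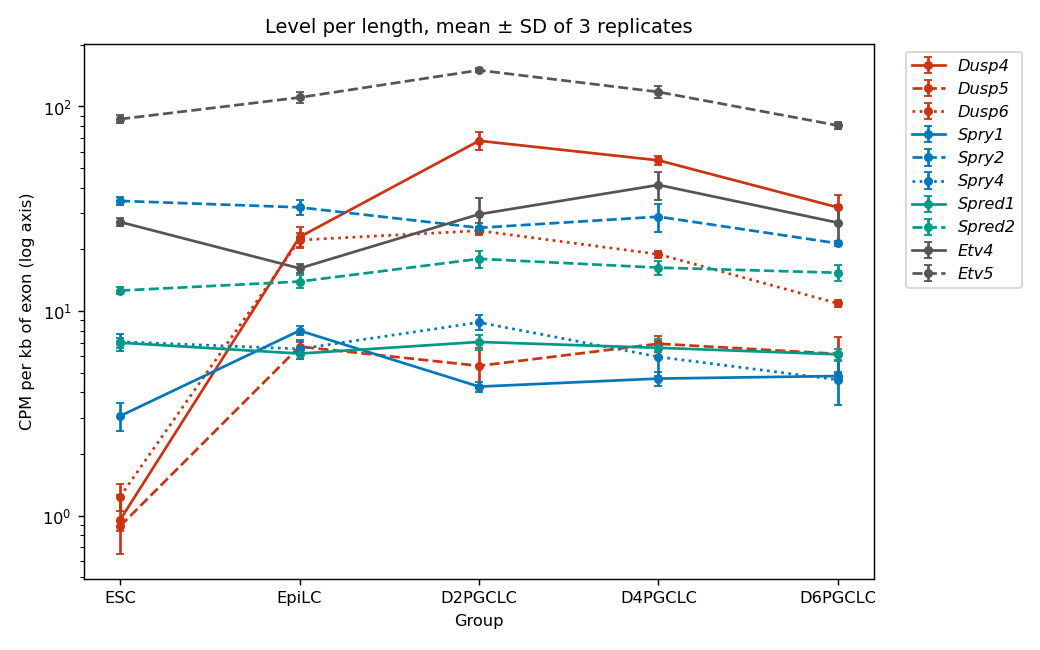
Level per length (CPM per kilobase of merged exon, log axis) of the 10 genes in the 5 groups, as mean ± SD of 3 replicates, joined by lines only to guide the eye. *Dusp4* runs from 0.953 in ESCs to 67.9 in D2PGCLCs, while *Etv5* stays between 80.7 and 150.4.

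Summed per kilobase of exon, the 3 phosphatase genes reached 3.08 ± 0.444 CPM per kb (SD, n = 3) in ESCs, 51.9 ± 3.74 in EpiLCs and then 98.0 ± 8.81, 80.4 ± 2.92 and 49.2 ± 5.01 on days 2, 4 and 6. The same sum of the 3 Sprouty genes moved from 44.7 ± 0.937 in ESCs to 30.8 ± 0.544 in D6PGCLCs, and that of the SPRED genes stayed between 19.6 and 25.0. The sum for *Etv4* and *Etv5* was 114 ± 5.24 in ESCs, 180.1 ± 3.04 in D2PGCLCs and 108 ± 8.99 in D6PGCLCs. By these sums the phosphatase transcripts were the scarcest class of the set in ESCs, and in D2PGCLCs only the ETS factor sum was higher. *Dusp4* made up 67.9 of the D2PGCLC phosphatase sum. *Dusp5*, at 5.39 CPM per kb in D2PGCLCs, lay below *Spry2*, *Spry4*, *Spred1* and *Spred2*.

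Naive ESCs and EpiLCs differed in culture by the loss of PD0325901, CHIR99021 and LIF and the addition of bFGF and Activin A. They also differed by added knockout serum replacement and by the coating of the wells. *Dusp4*, *Dusp5*, *Dusp6* and *Spry1* rose. DEGs were called with an adjusted p (edgeR's quasi-likelihood test, Benjamini-Hochberg over all 18090 genes) under 0.05 together with a log2 fold change beyond 1 or -1. By this rule 4 of the 10 genes were higher in EpiLCs, against 14.4% of all tested genes, and 11.9% of genes were lower. *Dusp4* rose 23.7-fold (log2 fold change 4.56, SE 0.17, adjusted p = 1.84e-13) and *Dusp6* 17.8-fold (4.15, SE 0.11, adjusted p = 2.17e-15). *Dusp5* rose 7.54-fold (2.92, SE 0.19, adjusted p = 3e-10) and *Spry1* 2.62-fold (1.39, SE 0.13, adjusted p = 3.62e-08).

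The ETS factors moved apart at this step. *Etv4* differed by -0.75 on the log2 scale (SE 0.15, adjusted p = 0.000312) and *Etv5* by 0.35 (SE 0.073, adjusted p = 0.000499), both past the adjusted p, as were 52.5% of all genes, but within the fold-change cutoff. The other members did not pass the adjusted p, with log2 fold changes of -0.10 for *Spry2* (95% confidence interval -0.31 to 0.10), -0.12 for *Spry4* (-0.45 to 0.22), -0.18 for *Spred1* (-0.37 to 0.021) and 0.15 for *Spred2* (-0.047 to 0.34). Replicates of the groups did not overlap for 8 of the 10 genes, as for 63.5% of all tested genes. The median log2 fold change of the 10 genes was 0.25, against -0.01 over all genes. The summed level of 6 fibroblast markers was 20.1 to 21.7 CPM in EpiLCs and 8.99 to 10.4 CPM in ESCs, and their part in these differences was not tested. Of the 6 fibroblast markers, 3 had over 10 counts in every ESC sample and 2 (*Col3a1* and *Postn*) had no count in any, while 5 had over 10 counts in every EpiLC sample. The sum of 4 mesoderm markers was 35.9 to 38.8 CPM in ESCs and 7.19 to 8.07 CPM in EpiLCs, and that of 5 endoderm markers 5.36 to 6.53 CPM in ESCs and 2.98 to 3.01 CPM in EpiLCs. Their part was not tested either.

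**Figure D3:**
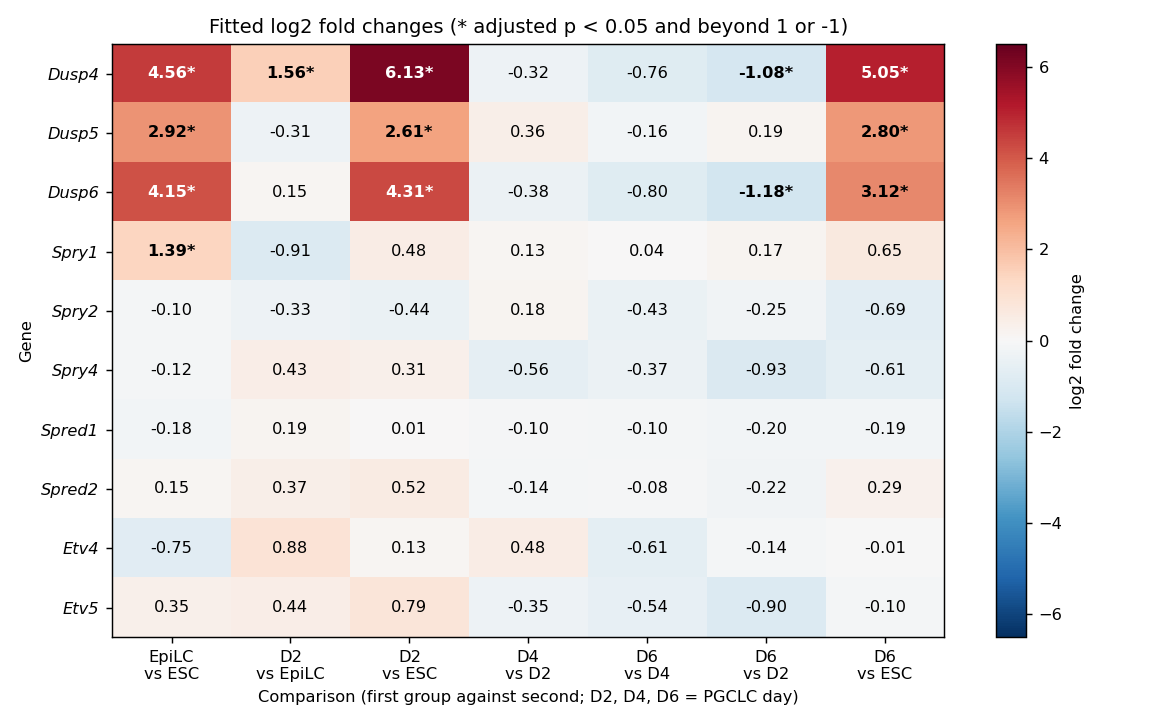
Fitted log2 fold changes of the 10 genes (rows) in the 7 comparisons (columns), first group against second, with an asterisk where the adjusted p was under 0.05 and the change beyond 1 or -1. The asterisks lie in the *Dusp* rows except for *Spry1* in EpiLCs against ESCs (1.39).

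From EpiLCs to D2PGCLCs, Dox replaced bFGF and Activin A, and the basal medium changed to another with more serum replacement. At this step *Dusp4* alone among the 10 genes rose past both cutoffs. It increased 2.96-fold (log2 fold change 1.56, SE 0.14, adjusted p = 1.85e-08). Of all tested genes, 11% were called higher and 14.4% lower. *Dusp6* (0.15, 95% confidence interval -0.038 to 0.34, adjusted p = 0.17) and *Dusp5* (-0.31, -0.65 to 0.034, adjusted p = 0.122) did not pass the adjusted p.

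Another 6 genes passed the adjusted p within the fold-change cutoff, as part of the 53.2% of tested genes that passed it. *Etv4* was higher by 0.88 (SE 0.15, adjusted p = 6.33e-05), *Etv5* by 0.44 (SE 0.073, adjusted p = 4.67e-05), *Spry4* by 0.43 (SE 0.16, adjusted p = 0.0292) and *Spred2* by 0.37 (SE 0.092, adjusted p = 0.00243). *Spry1* was lower at -0.91 (SE 0.13, adjusted p = 6.09e-06) and *Spry2* at -0.33 (SE 0.10, adjusted p = 0.00909). *Spred1*, at 0.19, had an adjusted p of 0.0989. Without D2PGCLC replicate 3, *Etv4* passed the fold-change cutoff as well (1.01, adjusted p = 2.3e-05), which makes 2 genes called. The median of the 10 genes was 0.28 and that of all genes 0.00. In D2PGCLCs the fibroblast marker sum was 1.95 to 3.94 CPM, below that of EpiLCs. The mesoderm sum was 16.9 to 22.3 CPM, above that of EpiLCs, through *Eomes* alone (group means 6.86 CPM in EpiLCs and 19.1 CPM in D2PGCLCs). *T* (0.248 and 0.0797 CPM) and *Mixl1* (0.575 and 0.181 CPM) were lower in D2PGCLCs, and *Mesp1* was at 0 CPM in both groups. The endoderm sum was at most 1.76 CPM, below that of EpiLCs. The part of these markers in the differences was not tested.

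Against ESCs, D2PGCLCs kept the phosphatases high. *Dusp4* was 70.0-fold higher (log2 fold change 6.13, SE 0.18, adjusted p = 8.56e-15), *Dusp6* 19.8-fold (4.31, SE 0.11, adjusted p = 1.7e-15) and *Dusp5* 6.09-fold (2.61, SE 0.19, adjusted p = 1.55e-09). These were 3 of the 10 genes, against 11.7% of all tested genes called higher and 12.7% called lower. *Etv5* (0.79, adjusted p = 3.87e-08), *Spred2* (0.52, adjusted p = 0.000131) and *Spry1* (0.48, adjusted p = 0.0044) were higher and *Spry2* (-0.44, adjusted p = 0.0013) lower by less than the cutoff, where 49% of all genes passed the adjusted p. *Spry4* (0.31, adjusted p = 0.111), *Etv4* (0.13, adjusted p = 0.506) and *Spred1* (0.01, adjusted p = 0.922) did not pass. All 3 marker sums of other cell types given above (fibroblast, mesoderm and endoderm) were lower in every D2PGCLC sample than in every ESC sample, and their part was not tested. Comparisons that name the same group, such as those against ESCs, share its 3 samples and are no independent repeats of each other.

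During the days of PGCLC culture the changes were smaller. Between days 2 and 4, edgeR called 0 of the 10 genes, as did DESeq2, while 6 of them had an unadjusted p under 0.05, as had 26.2% of all tested genes. Of all tested genes, 2.56% were called higher and 0.376% lower. At the adjusted p alone, *Etv4* was higher on day 4 by 0.48 (SE 0.15, adjusted p = 0.0404). *Etv5* (-0.35, adjusted p = 0.00404), *Dusp6* (-0.38, adjusted p = 0.00994) and *Spry4* (-0.56, adjusted p = 0.0279) were lower. In all, 11.9% of tested genes passed the adjusted p. *Dusp4* differed by -0.32 (adjusted p = 0.13), although its samples of the 2 days did not overlap. All these values came from the fit without a replicate block. With the block, the adjusted p was 0.00384 for *Etv4*, 0.00291 for *Etv5*, 0.00918 for *Dusp6*, 0.0114 for *Spry4* and 0.0689 for *Dusp4*. The block was fitted over all 15 samples, including groups whose replicate numbers were not taken as pairs. It is therefore no paired test of days 2 and 4 alone.

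Between days 4 and 6, edgeR and DESeq2 again called 0 of the 10 genes, with 6 at an unadjusted p under 0.05, against 27.6% of all tested genes. The background was 2.29% of genes called higher and 0.785% lower. At the adjusted p alone 5 genes were lower on day 6, against 6.82% of all genes (12.8% in both directions). They were *Dusp6* (-0.80, SE 0.091, adjusted p = 3.35e-05), *Dusp4* (-0.76, SE 0.13, adjusted p = 0.00118), *Etv4* (-0.61, SE 0.15, adjusted p = 0.0102), *Etv5* (-0.54, SE 0.073, adjusted p = 0.000128) and *Spry2* (-0.43, SE 0.10, adjusted p = 0.00844). The fitted difference was below 0 for all members but *Spry1* (0.04), and the median of the 10 genes was -0.40 against -0.01 over all genes. Without D6PGCLC replicate 1 the differences were -0.76 for *Dusp4*, -0.83 for *Dusp6*, -0.57 for *Etv4* (adjusted p = 0.0432), -0.53 for *Etv5* and -0.42 for *Spry2* (adjusted p = 0.031), and all 5 still passed the adjusted p. The endoderm sum was 4.47 to 4.67 CPM in D4PGCLCs and 9.51 to 18.0 CPM in D6PGCLCs. The marker with the largest rise in it was *Gata6*, at a mean of 1.81 CPM in D4PGCLCs. In D6PGCLC replicates 1, 2 and 3 *Gata6* was at 14.1, 5.66 and 7.99 CPM. The part of the endoderm markers was not tested.

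Over the whole span from day 2 to day 6, *Dusp4* and *Dusp6* fell. *Dusp6* dropped 2.27-fold (log2 fold change -1.18, SE 0.092, adjusted p = 4.22e-08) and *Dusp4* 2.12-fold (-1.08, SE 0.13, adjusted p = 6.46e-06). They made up 2 of the 10 genes, against 2.75% of all tested genes called lower and 10.9% called higher. With library totals in place of TMM factors, *Dusp4* differed by -0.92 (adjusted p = 3.8e-05), and without D6PGCLC replicate 2 by -0.99 (adjusted p = 5.4e-05), so that it no longer met the fold-change cutoff. *Dusp5* was not lower (0.19, 95% confidence interval -0.15 to 0.53, adjusted p = 0.377).

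*Spry4* (-0.93, SE 0.16, adjusted p = 0.000179) and *Etv5* (-0.90, SE 0.073, adjusted p = 6.85e-08) passed the adjusted p but stayed within the cutoff, which *Spry4* crossed without D6PGCLC replicate 2 (-1.12). At the adjusted p alone 4 of the 10 genes were thus lower on day 6, against 18.2% of all genes (37.7% in both directions). *Etv4* was at -0.14 (adjusted p = 0.493), and its samples of the 2 days overlapped. Without D6PGCLC replicate 1, the log2 fold changes were -1.07 for *Dusp4*, -1.20 for *Dusp6*, -0.93 for *Spry4* and -0.88 for *Etv5*. The endoderm sum in D2PGCLCs was at most 1.76 CPM, below all D6PGCLC samples. Its part in the day 6 values was not tested.

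On day 6 the phosphatases were still far above their ESC levels. *Dusp4* was 33.0-fold higher (log2 fold change 5.05, SE 0.18, adjusted p = 1.14e-13), *Dusp6* 8.72-fold (3.12, SE 0.11, adjusted p = 1.14e-13) and *Dusp5* 6.95-fold (2.80, SE 0.19, adjusted p = 6.09e-10). Again these were 3 of the 10 genes, against 15.8% of all tested genes called higher and 10.3% called lower. *Spry2* (-0.69, adjusted p = 1.2e-05) and *Spry4* (-0.61, adjusted p = 0.0033) were lower than in ESCs, and *Spry1* (0.65, adjusted p = 0.000282) and *Spred2* (0.29, adjusted p = 0.0127) higher, by less than the cutoff, with 53.7% of all genes past the adjusted p. Neither ETS factor passed the adjusted p against ESCs. *Etv5* was at -0.10 (95% confidence interval -0.26 to 0.049) and *Etv4* at -0.01 (-0.32 to 0.30), and both signs turned with library totals (0.0062 and 0.097). Without D6PGCLC replicate 1 the log2 fold changes against ESCs were 5.07 for *Dusp4*, 3.11 for *Dusp6* and 2.64 for *Dusp5*, and those of the other genes past the adjusted p were 0.64 for *Spry1*, 0.36 for *Spred2*, -0.66 for *Spry2* and -0.61 for *Spry4*. *Etv4* was then at 0.049 and *Etv5* at -0.070. The fibroblast (3.12 to 4.84 CPM) and mesoderm (10.8 to 17.4 CPM) sums were lower in D6PGCLCs than in ESCs and the endoderm sum higher. Among the endoderm markers, *Gata6* (group means 0.314 CPM in ESCs and 9.25 CPM in D6PGCLCs), *Sox7* (0.301 and 0.992 CPM) and *Sox17* (1.07 and 1.28 CPM) were higher. *Gata4* (4.35 and 1.94 CPM) and *Foxa2* (0.0682 and 0.0262 CPM) were lower. The part of all these markers was not tested.

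The rest of the pathway was followed in 6 lists, described by their counts at the same cutoffs beside the shares over all genes. Not every called gene is named. Against ESCs, 11.7% of all genes were called higher and 12.7% lower in D2PGCLCs, and 15.8% and 10.3% in D6PGCLCs. For day 4 against day 2 the shares were 2.56% and 0.376%. No list gene was called between days 4 and 6. Of 18 RAS-ERK cascade genes, 2 rose from ESCs to EpiLCs, the kinase genes *Braf* (log2 fold change 1.20, adjusted p = 1.31e-07) and *Mapk3* (1.08, adjusted p = 3.17e-08), against 14.4% of all genes, with a list median of 0.20 against -0.01 over all genes. From EpiLCs to D2PGCLCs the 18 genes stayed between -0.87 and 0.99 and from day 2 to day 6 between -0.46 and 0.84. In D6PGCLCs the scaffold gene *Ksr1* was 3.37-fold higher than in ESCs (1.75, adjusted p = 5.65e-09), the only call in that list for this comparison.

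Among 7 other MAPK phosphatase genes, 3 rose from ESCs to EpiLCs, where 14.4% of all genes did, namely *Dusp9* (3.70, adjusted p = 4.56e-15), *Dusp2* (2.46, adjusted p = 0.018) and *Dusp1* (1.05, adjusted p = 5.84e-09). *Dusp2* was scarce in both groups, at 0.170 ± 0.0838 CPM in ESCs and 0.932 ± 0.382 CPM in EpiLCs. *Dusp9*, a phosphatase of ERK encoded on the X chromosome, went from 26.6 ± 2.49 CPM in ESCs to 346 ± 18.2 CPM in EpiLCs, and reached 568 ± 40.7 CPM in D6PGCLCs. It rose from day 2 to day 6 (1.13, adjusted p = 8.79e-08), while *Dusp4* and *Dusp6* fell. From EpiLCs to D2PGCLCs, *Dusp16* (1.35, adjusted p = 4.82e-10) rose and *Dusp10* (-2.28, adjusted p = 5.89e-06) and *Dusp1* (-1.57, adjusted p = 3.37e-11) fell, where 11% of all genes rose and 14.4% fell. *Dusp10* and *Dusp16* encode phosphatases that act mainly on the stress kinases JNK and p38. Against ESCs, *Dusp9* was higher in D2PGCLCs (3.28, adjusted p = 2.35e-14) and D6PGCLCs (4.42, adjusted p = 1.42e-15), and *Dusp10* was lower in both (-2.49, adjusted p = 2.22e-06, and -2.17, adjusted p = 7.29e-06). In each of these comparisons 2 of the 7 genes were higher and 1 lower. The other higher gene in D2PGCLCs was *Dusp16* (1.45, adjusted p = 1.78e-10). *Dusp9* was also the list's only call between days 2 and 4 (1.15, adjusted p = 1.28e-06).

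Of 9 other signalling brakes, 3 were higher in EpiLCs than in ESCs, against 14.4% of all genes. *Spry3* had 34 to 61 counts per EpiLC sample and 0 to 1 per ESC sample, which puts it at least 12.6-fold higher against a floor of 3 counts per sample. *Spred3* (1.12, adjusted p = 0.00949) and the EGF receptor inhibitor *Errfi1* (1.06, adjusted p = 2.28e-06) rose as well. From EpiLCs to D2PGCLCs *Spry3* was at least 15.4-fold lower, with no count in D2PGCLCs, and *Spred3* fell (-3.08, adjusted p = 1.37e-06), 2 of 9 against 14.4% of all genes. From day 2 to day 6 the neurofibromin gene *Nf1* rose (1.04, adjusted p = 4.07e-06), the 1 call of 9, against 10.9% of all genes called higher. Against ESCs, *Spred3* was lower in D2PGCLCs (-1.97, adjusted p = 0.000223) and D6PGCLCs (-1.68, adjusted p = 0.000649), and *Errfi1* was higher in D2PGCLCs (1.04, adjusted p = 3.3e-06). *Nf1* was also lower in D2PGCLCs (-1.33, adjusted p = 4.46e-08). Of the 9 genes, 1 was thus higher and 2 lower in D2PGCLCs, and 0 were higher and 1 lower in D6PGCLCs.

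From ESCs to EpiLCs, 2 of 10 other ETS factor genes rose and 2 fell, where 14.4% of all genes rose and 11.9% fell. *Ets1* (2.45, adjusted p = 3.46e-07) and *Etv1* (1.80, adjusted p = 7.39e-07), the third PEA3 gene, rose, and *Elk3* (-1.81, adjusted p = 1.91e-06) and the repressor gene *Erf* (-1.13, adjusted p = 1.76e-08) fell. *Etv1* then fell in D2PGCLCs (-1.74, adjusted p = 1.02e-06), where *Etv4* and *Etv5* stood 0.88 and 0.44 higher than in EpiLCs. *Etv3* rose at that step (1.02, adjusted p = 7.17e-07). From day 2 to day 6 *Elk3* rose (1.55, adjusted p = 3.55e-05) and *Etv6* fell (-1.30, adjusted p = 5.86e-08), with 10.9% of all genes called higher and 2.75% lower. *Elk3* was the list's only call between days 2 and 4 (1.11, adjusted p = 0.00377). Against ESCs, *Ets1* was higher in D2PGCLCs (2.39, adjusted p = 5.2e-07) and D6PGCLCs (3.17, adjusted p = 1.09e-08), *Elk3* lower in D2PGCLCs (-1.96, adjusted p = 8.01e-07) and *Etv6* lower in D6PGCLCs (-1.38, adjusted p = 2.95e-09). Each of these comparisons with ESCs thus had 1 of the 10 genes higher and 1 lower.

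Of 10 other ERK-responsive genes, 2 rose and 1 fell from ESCs to EpiLCs, against 14.4% and 11.9% of all genes. *Egr1*, an immediate early transcription factor gene, rose 766-fold (log2 fold change 9.58, SE 0.36, adjusted p = 1.73e-13), from 0.347 ± 0.117 to 262 ± 34.2 CPM. *Maff* rose too (1.62, adjusted p = 0.000431), and the receptor gene *Epha4* fell (-2.87, adjusted p = 3.68e-12). From EpiLCs to D2PGCLCs, *Egr1* fell 14.2-fold (-3.83, adjusted p = 1.74e-10), and the cyclin D1 gene *Ccnd1* (-2.28, adjusted p = 1.75e-11), *Maff* (-1.41, adjusted p = 0.00128) and *Plaur* (-1.01, adjusted p = 9.04e-05) fell with it. *Phlda1* rose (1.56, adjusted p = 1.7e-06). These were 4 of 10 genes lower and 1 higher, against 14.4% and 11% of all genes. The list median was -0.78, against 0.28 for the 10 genes and 0.00 over all genes. *Egr1* was the list's only call from day 2 to day 4 (-2.02, adjusted p = 6.58e-05) and to day 6 (-2.57, adjusted p = 5.78e-07), and it fell in both. It was still above ESCs on day 2 (5.76, adjusted p = 3.79e-10) and day 6 (3.18, adjusted p = 8.77e-06). The lowest values against ESCs were those of *Epha4* on day 2 (-2.99, adjusted p = 2.46e-12) and *Ccnd1* on day 6 (-2.80, adjusted p = 1.56e-12). On day 2, *Phlda1* (2.14, adjusted p = 5.13e-08) and *Lif* (1.45, adjusted p = 7.56e-06) were also higher than in ESCs, and *Ccnd1* was lower (-2.15, adjusted p = 2.94e-11). On day 2 and on day 6, 3 of the 10 genes were higher than in ESCs and 2 lower.

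Of 8 genes of FGF ligands and receptors, 4 were higher in EpiLCs than in ESCs, against 14.4% of all genes. The EpiLC marker *Fgf5* had 1409 to 1974 counts per EpiLC sample and 0 to 1 per ESC sample, at least 445-fold higher. *Fgfr2* (5.76, adjusted p = 6.69e-14), *Fgf8* (4.76, adjusted p = 2.12e-05) and *Fgf15* (3.99, adjusted p = 2.4e-06) rose. The fitted changes of *Fgf8* rest on few counts. Its level was 4.87 ± 2.15 CPM in EpiLCs, but 0.178 ± 0.205 CPM in ESCs and 0.0850 ± 0.0627 CPM in D2PGCLCs, near the floor of 3 counts. In D2PGCLCs 5 genes were lower than in EpiLCs, against 14.4% of all genes, the ligands *Fgf5* (-6.04), *Fgf8* (-5.77), *Fgf15* (-4.95) and *Fgf4* (-1.30) and the receptor *Fgfr4* (-1.90), with adjusted p values from 2.38e-11 to 0.00295. *Fgfr3* was higher (1.36, adjusted p = 0.0197), 1 of 8 against 11%.

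*Fgfr2* was at 36.1 ± 8.05 CPM in EpiLCs and 60.1 ± 7.98 CPM in D2PGCLCs, and then fell to 15.6 ± 0.562 CPM in D6PGCLCs (day 6 against day 2, -1.95, adjusted p = 2.59e-08). *Fgfr1* was at 112 ± 2.55 CPM in ESCs and 163 ± 16.9 CPM in D6PGCLCs and was called in none of these comparisons. From day 2 to day 6 *Fgfr4* (2.31, adjusted p = 0.00098) and *Fgfr3* (1.49, adjusted p = 0.00842) rose. Between days 2 and 4 the only call was *Fgfr2* (-1.23, adjusted p = 3.45e-05). Against ESCs, *Fgfr2* was 90.4-fold higher (adjusted p = 2.09e-14) and *Fgfr4* lower (log2 fold change -2.26, adjusted p = 0.000736) in D2PGCLCs. *Fgf4* was lower as well (-1.56, adjusted p = 1.93e-08). Of the 8 genes, 2 were higher and 2 lower than in ESCs in D2PGCLCs, and 3 were higher and 1 lower in D6PGCLCs. The D6PGCLC level of *Fgfr2* was still above that of ESCs (0.658 ± 0.0999 CPM). In D6PGCLCs *Fgf15* was lower than in ESCs (-2.62, adjusted p = 0.00211), with no count in replicate 1. The mean of *Fgf5*, with 9 to 31 counts per sample, was at least 3.33-fold higher. That mean leaned on D6PGCLC replicate 1, at 0.815 CPM against 0.242 and 0.255 CPM in replicates 2 and 3. Medians of the lists with *Spry3* and *Fgf5* at their bounds were the same as with their fitted values in the comparisons of EpiLCs with ESCs and D2PGCLCs.

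**Figure D4:**
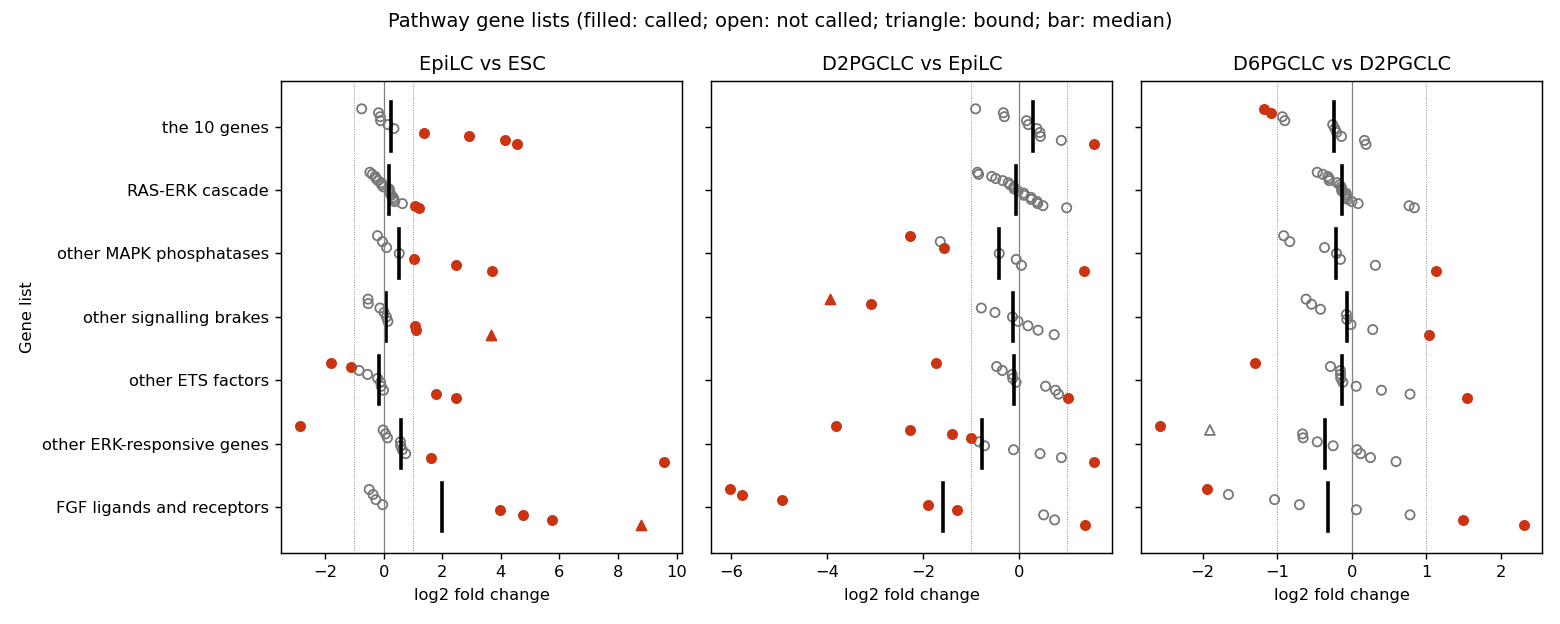
Log2 fold changes of the 10 genes and the 6 other lists in 3 comparisons, with filled red symbols for genes called, open symbols for the rest, triangles for lower bounds of the size of the change and black bars for list medians. The median of the FGF genes runs from 1.98 (EpiLC vs ESC) to -1.60 (D2PGCLC vs EpiLC), whereas that of the 10 genes is 0.25 and 0.28. Genes at or under 3 counts per sample in both groups are left out.

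Across the 15 samples, Pearson's r of log2(CPM + 1) between members was highest among the phosphatases, at 0.951 for *Dusp4* and *Dusp6*, 0.937 for *Dusp5* and *Dusp6* and 0.924 for *Dusp4* and *Dusp5*. The lowest was -0.576 for *Dusp4* and *Spry2*, and *Etv4* and *Etv5* had 0.179. These values describe 15 samples that share 5 groups and carry no test. Among 11381 genes with a mean of at least 100 counts, those most like *Dusp6* were *Col18a1* (r = 0.997), *Esrp1* (0.995) and *Bcl2l11* (0.99). *Esrp1*, an epithelial splicing regulator gene, was at 2.61 ± 0.540 CPM in ESCs and 149 ± 2.86 CPM in EpiLCs. On days 2, 4 and 6 it was at 186 ± 8.51, 146 ± 13.8 and 81.0 ± 1.96 CPM. Most like *Spry4* were *Sox13* (0.932), *Zfp473* (0.921) and *Rrm2* (0.908), and most like *Etv4* were *Vangl1* (0.957), *E2f2* (0.936) and *Wnt3a* (0.93).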

How the data were processed

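RNA was purified with TRIzol, and stranded libraries were made with the NEBNext Ultra II Directional kit. The authors deposited raw read counts per Ensembl gene of the mm10 genome, with no normalization, and the submitters' processing notes name Trim Galore, FastQC and STAR. The counting program, the annotation release and the strand setting are not given in the sources used here. Symbols, coordinates and merged exon lengths came from GENCODE M21, which held 55536 of 55536 identifiers, and start-site windows from RefSeq (GRCm38.p6).

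Counts were tested with edgeR 4.0.16 in R 4.3.3 (TMM factors, filterByExpr with a minimum of 10 counts, quasi-likelihood test in 1 fit of the 15 samples by group). Adjusted p-values cover 18090 genes, and a call needed both an adjusted p below 0.05 and a log2 fold change beyond 1 or -1. Samples were grouped by their labels into 5 groups and 7 comparisons were made. The methods of the paper name DESeq2, here an alternative (1.42.0). Other alternatives were DESeq2 size factors, library totals, no filter, a replicate block, fits of the compared groups alone, calls by adjusted p alone and fits without each replicate. The tools were checked on simulated counts.

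The members, lists and tests were chosen with earlier results of these data known. Named were the 10 genes, in each list and comparison the called genes with the highest and lowest log2 fold change, and, for *Dusp6*, *Spry4* and *Etv4*, the 3 genes with the highest Pearson's r of log2(CPM + 1). Further list genes were named after their values were seen. A floor of 3 counts is at most 0.133 CPM in these samples and covers counting error only. Chi-square per gene between replicates was 8.82 to 44.6, so each sample counted as 1 replicate.

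Replicate numbers come from the labels, which do not say that they mark samples made together. Deviations from group means of same-numbered samples correlated at 0.255 to 0.299 between D2PGCLCs and D4PGCLCs, in 3 of 3 pairs and above all pairs of other numbers, so the numbers were taken to pair these samples. In the other 6 comparisons at least 1 pair was under 0.1, and the numbers were not taken as pairs there. Between D4PGCLCs and D6PGCLCs, number 1 was at 0.0187 and numbers 2 and 3 at 0.358 and 0.350. Between D2PGCLCs and D6PGCLCs, number 1 was at 0.0601 and numbers 2 and 3 at 0.320 and 0.177. The main values of every comparison came from the fit without pairs.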

Additional observations from a re-analysis of the deposited data

How the results depend on the processing

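Of 840 recomputed log2 fold changes of the 10 genes, 822 kept their direction and their side of the cutoffs, 2 lost the call, 2 gained it and 14 changed sign, the last only where the main value was within 0.136 of 0. With library totals, 1 gene (*Dusp6*) in place of 2 was called from day 2 to day 6, and signs turned for *Spred1* (D2PGCLC vs ESC, -0.043), *Spred2* (D6PGCLC vs D4PGCLC, 0.013), *Etv4* (0.027 against day 2, 0.097 against ESCs) and *Etv5* (D6PGCLC vs ESC, 0.0062). Library totals moved the median of all genes by up to 0.16 (D6PGCLC vs D2PGCLC). With only the groups compared, *Etv4* in D6PGCLCs against ESCs was at 0.018 and 371 of all genes, not 557, were called between days 4 and 6. Leaving out 1 replicate turned the sign of *Etv4* in D6PGCLCs against ESCs (range -0.20 to 0.13) and against day 2 (-0.33 to 0.022), of *Etv4* (-0.033 to 0.26) and *Spred1* (-0.048 to 0.077) in D2PGCLCs against ESCs, and of *Spry1* between days 4 and 6 (-0.029 to 0.085). The members called ranged from 1 to 2 for D2PGCLC vs EpiLC without a replicate, and did not change in number elsewhere. With no fold-change cutoff, 7 members passed in D2PGCLC vs EpiLC, D2PGCLC vs ESC and D6PGCLC vs ESC, 4 in D4PGCLC vs D2PGCLC and D6PGCLC vs D2PGCLC and 5 in D6PGCLC vs D4PGCLC. Causes were not tested. In the fit of all 15 samples with a replicate block, no call of a member changed, and 543 of all genes were called between days 2 and 4 in place of 531.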

Other observations

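On each of the 3 PGCLC days the second replicate had the highest value for *Etv4* (112, 152 and 104 CPM), *Spry4* (45.2, 34.7 and 27.2 CPM) and *Spred2* (90.3, 81.0 and 77.8 CPM). In EpiLCs the second replicate was also the highest for *Etv4* (52.6 CPM) and *Spred2* (69.6 CPM), but not for *Spry4* (31.3 CPM, against 34.3 CPM in the third).

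The planar polarity gene *Vangl1*, most like *Etv4* across samples, was at 49.4 ± 2.81 CPM in ESCs, 28.3 ± 3.52 CPM in EpiLCs and 51.5 ± 8.75, 62.2 ± 8.28 and 50.4 ± 9.40 CPM on days 2, 4 and 6. *Wnt3a*, a WNT ligand gene, was at 3.66 ± 0.576 CPM in ESCs, 0.250 ± 0.0178 in EpiLCs and 11.4 ± 2.27 in D4PGCLCs. *Rrm2*, a ribonucleotide reductase subunit gene and among those most like *Spry4*, was lowest in D6PGCLCs, at 275 ± 33.8 CPM against 393 ± 2.43 CPM in D2PGCLCs.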
